A study of Homo sapiens with 63 samples.

Results

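Genes that ERK signalling switches on and whose products limit the pathway or carry its output are described here across the 21 treatment groups of COLO320DM cells. The list held 10 genes, and the 9 with a row under that symbol in the table of 13962 genes were followed: DUSP5, DUSP6, SPRY1, SPRY2, SPRY4, SPRED2, ETV4, ETV5 and PHLDA1. DUSP4 was not analysed here. In the RAS-RAF-MEK-ERK cascade a growth factor receptor activates RAS, and the kinases in turn phosphorylate ERK, which enters the nucleus. Active ERK induces dual-specificity phosphatases (DUSP) that remove its own phosphates, Sprouty (SPRY) and SPRED proteins that dampen the steps between receptor and RAF, and the PEA3-type ETS transcription factors ETV4 and ETV5. Levels of these transcripts are widely used as a readout of ERK output in colorectal and other cancers.

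COLO320DM is a human colorectal adenocarcinoma line, grown here in RPMI with 4% fetal bovine serum, and the study concerns a helicon, a helical peptide directed at β-catenin and its TCF partners. Cells received Helicon 4 at 1, 3 or 10 µM, Helicon 4-neg at 1, 3 or 10 µM, or DMSO, and RNA was taken at 6, 24 or 48 h, with 3 libraries in each of the 21 groups. The labels give Helicon 4-neg by name only, with no statement of how it differs from Helicon 4, and all 63 libraries come from the 1 cell line. The labels number the replicates as biological, but nothing says that they were separate cultures, and p-values therefore rest on the spread among the libraries alone, which may be technical. Poly(A) RNA was sequenced to between 16628595 and 32860333 counted reads a library (median 22123187). Values are CPM (reads of a gene scaled to a common library total) divided by a scaling factor of each library, called scaled CPM from here on, and 1 read was worth between 0.0302 and 0.0622 scaled CPM.

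Of 10 listed markers of colorectal epithelium 8 were in the table, and their summed level was between 2604 and 3657 scaled CPM with Helicon 4, between 3423 and 4049 with Helicon 4-neg and between 3499 and 4321 with DMSO. The intestinal factor CDX2 (2234 to 3977 scaled CPM) made up most of that sum, followed by the keratins KRT8 (142 to 340) and KRT18 (58.0 to 130). The rest of the list was low: CDH17 (2.20 to 5.67), EPCAM (1.04 to 4.16), KRT20 (0.386 to 3.89), CDH1 (0 to 2.51) and KRT19 (0 to 1.36). The leukocyte gene PTPRC was at 7.28 to 14.6. The sum thus describes CDX2 and these 2 keratins and not the list as a whole. The libraries fell into 3 sets, each found in every treatment and at every time. CDH1, the epithelial cadherin, was at 0.504 to 2.51 scaled CPM in 32 libraries, COL1A2, a collagen chain of fibroblasts, was at 15.3 to 21.5 in 15 others, and neither was seen at those levels in the remaining 16. Those sets held 14, 6 and 7 Helicon 4 libraries, 14, 7 and 6 Helicon 4-neg libraries, and 4, 2 and 3 DMSO libraries. They were uneven over the groups. At 10 µM and 6 h, 3 µM and 24 h, and 1 µM and 48 h both compounds had CDH1 libraries only. No CDH1 library was among those of DMSO at 48 h, 10 µM Helicon 4 at 24 h or 3 µM Helicon 4 at 48 h. The same held for Helicon 4-neg at 1 µM and 24 h and at 3 µM and 6 h. At 1 µM and 48 h no library of either compound shared a set with a DMSO library. From these groups alone, differences from DMSO there cannot be told apart from differences between the sets. Fits with the set as a covariate take the set difference from the other groups of that time. Of 5 listed fibroblast markers 4 were in the table, and their summed level was 5.80 to 65.0 scaled CPM with Helicon 4, 4.83 to 56.3 with Helicon 4-neg and 5.96 to 52.4 with DMSO. Where the set as a covariate, or leaving out the COL1A2-high libraries, ended a call given in words with its difference, the value from that fit stands beside it. The fits without those libraries have fewer libraries, so an adjusted p can cross the threshold in them at an equal difference.

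The start regions of 3 members are shown first, since the study's compound is directed at a transcription factor complex. RefSeq start windows of 300 bases (250 before the start and 50 after it, build GRCh38.p14) were found for 6 of the 9 members, 10 windows in all, and were searched on both strands for CTTTGA (the core of a TCF/LEF site), CCGGAA (an ETS core) and TGANTCA (an AP-1 site). None was found for DUSP5, ETV4 or ETV5, so the starts of these genes were not searched. Of the 10 windows, 3 are printed: for SPRED2 and SPRY2, which fell with Helicon 4, the window with an AP-1 or TCF/LEF match, and for PHLDA1, which rose, its window with an ETS match. Capitals mark the matches, and each sequence is read 5′ to 3′ along its gene, which lies on the minus strand. They lie at chr2:65366729-65367028 (a start of SPRED2, TGANTCA at bases 245 and 285), chr13:80339610-80339909 (a start of SPRY2, CTTTGA at bases 230, 241 and 295, the first pair as TCAAAG on the other strand) and chr12:76031727-76032026 (PHLDA1, CCGGAA at base 162, as TTCCGG on the other strand).
SPRED2: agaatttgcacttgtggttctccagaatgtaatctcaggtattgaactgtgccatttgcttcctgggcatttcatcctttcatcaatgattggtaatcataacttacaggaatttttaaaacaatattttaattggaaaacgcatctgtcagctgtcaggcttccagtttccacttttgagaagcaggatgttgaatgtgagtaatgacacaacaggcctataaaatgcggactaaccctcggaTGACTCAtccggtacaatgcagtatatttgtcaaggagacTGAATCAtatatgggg
SPRY2: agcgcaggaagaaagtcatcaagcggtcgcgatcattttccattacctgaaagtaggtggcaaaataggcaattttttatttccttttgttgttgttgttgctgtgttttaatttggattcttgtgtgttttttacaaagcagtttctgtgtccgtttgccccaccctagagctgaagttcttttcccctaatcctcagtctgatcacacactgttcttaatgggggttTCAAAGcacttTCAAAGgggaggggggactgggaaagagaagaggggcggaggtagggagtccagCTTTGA
PHLDA1: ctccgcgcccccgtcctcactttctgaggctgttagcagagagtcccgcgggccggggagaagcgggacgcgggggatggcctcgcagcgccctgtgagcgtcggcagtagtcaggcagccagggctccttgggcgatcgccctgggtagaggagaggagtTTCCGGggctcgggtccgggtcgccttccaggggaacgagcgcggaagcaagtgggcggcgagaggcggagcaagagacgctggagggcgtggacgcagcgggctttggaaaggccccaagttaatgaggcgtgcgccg
CTTTGA was present in 1 of the 10 member windows, against 12.92% of all 35116 windows. CCGGAA was in 3 of the 10 windows (1 of SPRY1, 1 of SPRY2 and that of PHLDA1), against 17.25% of all windows, and TGANTCA in 1, against 7.709%. A match describes letters and is not a binding site.

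The genes lie on 8 chromosomes of GRCh38 in the GENCODE 29 annotation. ETV5 (ENSG00000244405) is at chr3:186046308-186110318 on the minus strand, SPRED2 (ENSG00000198369) at chr2:65310851-65432637 on the minus strand and PHLDA1 (ENSG00000139289) at chr12:76025447-76033932 on the minus strand. DUSP5 (ENSG00000138166) is at chr10:110497838-110511544 on the plus strand, DUSP6 (ENSG00000139318) at chr12:89347232-89353271 on the minus strand and ETV4 (ENSG00000175832) at chr17:43527844-43579620 on the minus strand. SPRY1 (ENSG00000164056) is at chr4:123396795-123403760 on the plus strand, SPRY2 (ENSG00000136158) at chr13:80335976-80340951 and SPRY4 (ENSG00000187678) at chr5:142310427-142326455, both on the minus strand.

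The 9 genes differed widely in level. Per kilobase of gene model, the mean over DMSO libraries was 21.6 scaled CPM for ETV5, 7.29 for SPRED2 and 3.34 for DUSP5. It was 0.982 for DUSP6, 0.927 for ETV4, 0.893 for SPRY1, 0.767 for SPRY2, 0.187 for PHLDA1 and 0.0651 for SPRY4. ETV5 thus stood far above its paralog ETV4 in untreated cells, and SPRED2 above all 3 Sprouty genes. SPRY4 was counted at 0 to 35 reads a library, with 1 library at 0, a count that allows up to 3 reads by counting error alone, whereas every other member had at least 17 reads in each library.

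**Figure D1:**
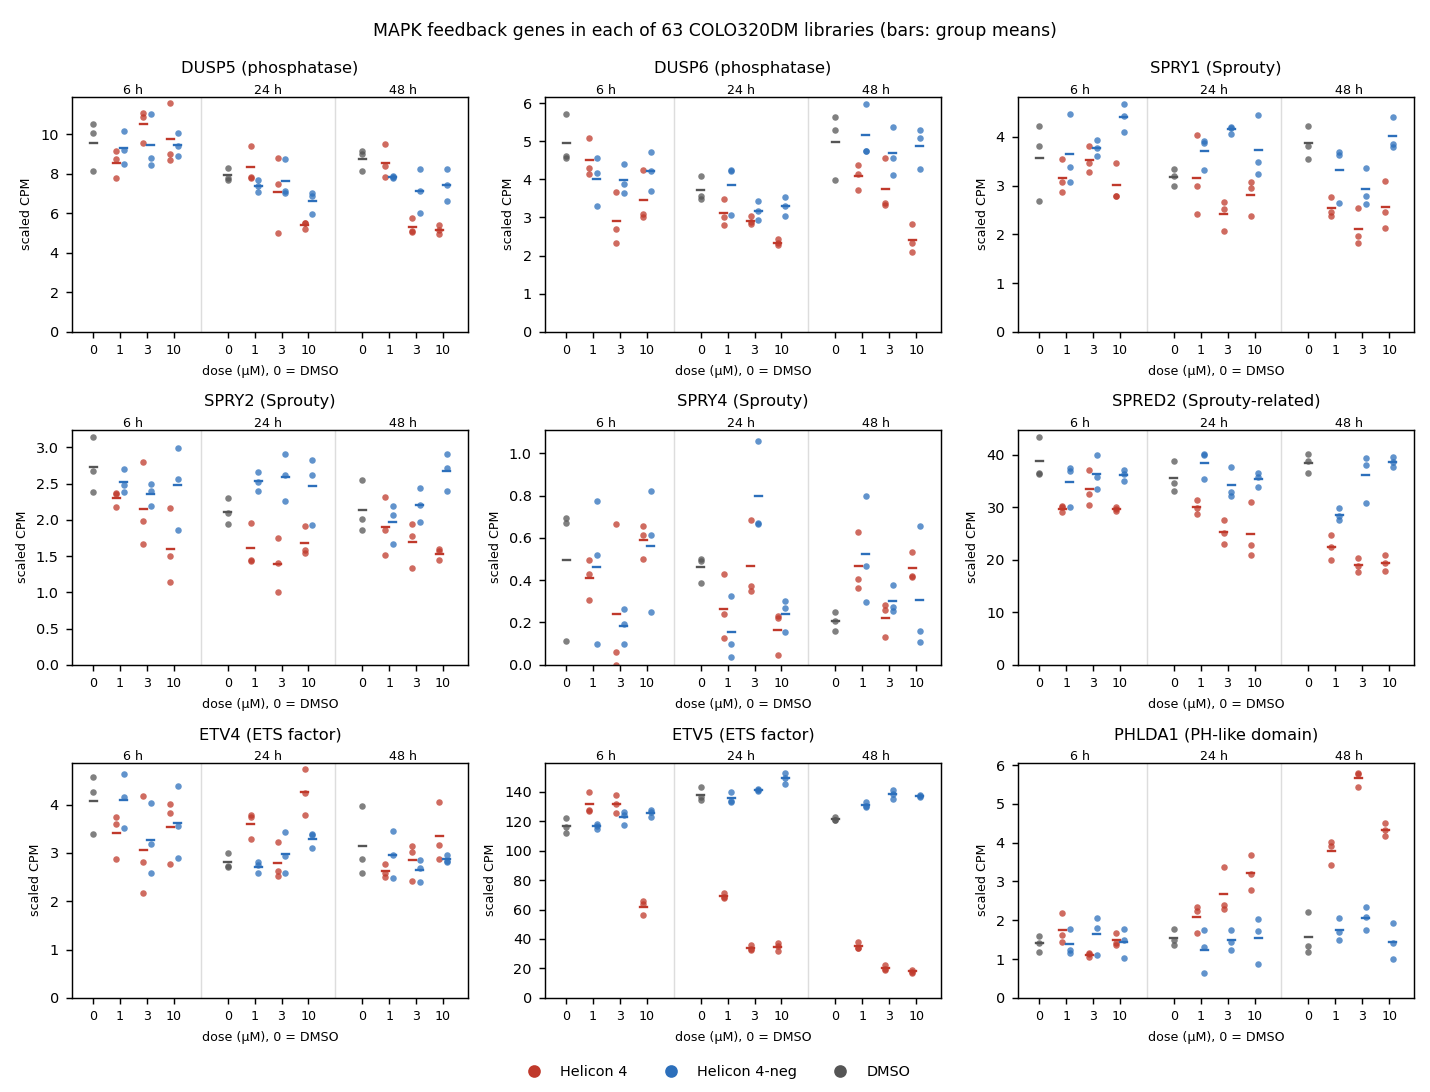
Scaled CPM of each of the 9 genes in every library, 1 panel a gene with its own y axis, by treatment, dose and time; points are libraries and bars are group means. ETV5 is at 16.9 to 22.4 scaled CPM with 3 and 10 µM Helicon 4 at 48 h and at 121 to 141 in the Helicon 4-neg and DMSO libraries of that time.

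ETV5, the PEA3-type factor with the highest level, fell with Helicon 4 at every dose at 24 and 48 h, and at 10 µM already at 6 h. At 6 h it was at 56.3, 63.6 and 65.8 scaled CPM with 10 µM Helicon 4, against 127, 123 and 127 with 10 µM Helicon 4-neg and 112, 116 and 122 with DMSO. All 3 Helicon 4 libraries were below every library of both other groups. The difference was −1.01 ± 0.05 (SE) on the log2(scaled CPM + 1) scale against Helicon 4-neg (limma, adjusted p = 2.43e-13) and −0.91 ± 0.05 against DMSO (adjusted p = 2.05e-12). In bulk RNA, fewer cells with the transcript and less of it in each cell cannot be told apart.

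At 24 h ETV5 was at 67.9, 68.7 and 71.0 scaled CPM with 1 µM Helicon 4, at 32.9, 32.5 and 36.0 with 3 µM and at 35.3, 31.8 and 37.1 with 10 µM. With Helicon 4-neg it was at 133, 134 and 140 (1 µM), 142, 141 and 142 (3 µM) and 150, 153 and 146 (10 µM), and with DMSO at 136, 134 and 143. The 3 µM and 10 µM libraries of Helicon 4 overlapped, and both lay below the 1 µM libraries. Against Helicon 4-neg at the same dose the log2 difference was −0.96 ± 0.05, −2.03 ± 0.05 and −2.08 ± 0.05 (SE) at 1, 3 and 10 µM (limma, adjusted p = 1.62e-11, 1.7e-17 and 5.65e-18).

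At 48 h ETV5 was lowest. It was at 37.7, 33.7 and 33.9 scaled CPM with 1 µM Helicon 4, at 18.6, 19.8 and 22.4 with 3 µM and at 19.1, 16.9 and 17.8 with 10 µM, while Helicon 4-neg gave 130 to 141 over its 9 libraries and DMSO 121, 121 and 123. The 10 µM mean was 17.9 ± 1.09 scaled CPM with Helicon 4 and 137 ± 0.646 with Helicon 4-neg (SD, n = 3 each), a ratio of 0.13. The log2 difference was −1.87 ± 0.056, −2.72 ± 0.056 and −2.87 ± 0.056 (SE) at 1, 3 and 10 µM (limma, adjusted p = 4.18e-17, 1.4e-20 and 2e-21). Leaving out any 1 library, adding the library set as a covariate or dropping the COL1A2-high libraries left every one of the 24 h and 48 h calls of ETV5 between Helicon 4 and Helicon 4-neg in place, as well as the call at 10 µM and 6 h.

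At 6 h the lower doses went the other way by a small amount. ETV5 was at 128, 127 and 140 scaled CPM with 1 µM Helicon 4 and at 126, 132 and 138 with 3 µM, against 112, 116 and 122 with DMSO. The log2 difference from DMSO was 0.17 ± 0.05 (SE) at both doses (limma, adjusted p = 0.0325 and 0.035), and both calls were lost with the library set as a covariate, at differences of 0.18 and 0.15 (adjusted p = 0.0832 at each dose). Without the COL1A2-high libraries the 1 µM difference was 0.26 (adjusted p = 0.281). Leaving out each of the 6 libraries in turn ended the call at 1 µM in 5 cases (all but that without DMSO replicate 3; adjusted p up to 0.115) and at 3 µM in 4 cases (Helicon 4 replicates 2 and 3, DMSO replicates 1 and 2; adjusted p up to 0.143). Against Helicon 4-neg of the same dose neither 1 µM (0.17, 95% interval 0.07 to 0.27, adjusted p = 0.148, limma) nor 3 µM (0.10, adjusted p = 0.367) passed.

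ETV4, the paralog of ETV5, was not called lower with Helicon 4 at any dose or time. At 10 µM and 24 h it was at 4.74, 3.78 and 4.24 scaled CPM with Helicon 4, against 3.40, 3.37 and 3.11 with Helicon 4-neg and 2.72, 2.71 and 3.00 with DMSO. The 3 Helicon 4 libraries were the highest of that set. ETV4 rose by a log2 difference of 0.29 ± 0.101 (SE) over Helicon 4-neg (limma, adjusted p = 0.0209) and of 0.46 ± 0.101 over DMSO (adjusted p = 0.000655). The call against Helicon 4-neg was lost without Helicon 4 replicate 1 (0.22, adjusted p = 0.109) or Helicon 4-neg replicate 3 (0.26, adjusted p = 0.0708). It was also lost in 1 fit of all 63 libraries (0.29, adjusted p = 0.078) and without the COL1A2-high libraries (0.48, adjusted p = 0.0568). At 3 µM and 24 h the difference from Helicon 4-neg was −0.07 (95% interval −0.28 to 0.14), and at 1 µM it was 0.31 (adjusted p = 0.0298), a call lost in 5 of the 6 fits that left out 1 library each (all but Helicon 4 replicate 3; adjusted p up to 0.108). The 1 µM difference was 0.30 with the set as a covariate (adjusted p = 0.058), 0.28 without the COL1A2-high libraries (adjusted p = 0.1135) and 0.31 in 1 fit of all 63 libraries (adjusted p = 0.0948). At 48 h the 10 µM difference was 0.16 (95% interval −0.11 to 0.44, adjusted p = 0.304). DHX8, on the opposite strand over ETV4, was at 46.9 to 86.0 scaled CPM, and whether counting used the strand is not given in the sources used here, so reads of DHX8 cannot be told apart from those of ETV4.

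Both phosphatases fell at 10 µM and 48 h. DUSP6, a cytoplasmic phosphatase specific for ERK, was at 2.83, 2.08 and 2.33 scaled CPM with 10 µM Helicon 4 at 48 h, against 5.30, 5.10 and 4.26 with Helicon 4-neg and 3.98, 5.30 and 5.62 with DMSO. The groups did not overlap, and DUSP6 fell by 0.79 ± 0.134 (SE) on the log2 scale against Helicon 4-neg (limma, adjusted p = 2.76e-05) and by 0.80 ± 0.134 against DMSO (adjusted p = 1.86e-05). At 48 h neither lower dose passed against Helicon 4-neg. With 3 µM DUSP6 was at 3.37, 3.33 and 4.56, against 5.36, 4.115 and 4.56, which overlapped. With 1 µM it was at 4.13, 3.73 and 4.39, against 4.74, 4.75 and 5.97, which did not overlap. At 24 h and 10 µM it was at 2.32, 2.27 and 2.43 with Helicon 4, against 3.03, 3.55 and 3.29 with Helicon 4-neg, a log2 difference of −0.36 (adjusted p = 0.00607). It was −0.37 (adjusted p = 0.0911) without the COL1A2-high libraries, with 2 of the 3 Helicon 4 and 2 of the 3 Helicon 4-neg libraries left out. At 6 h DUSP6 was at 3.67, 2.34 and 2.7 with 3 µM Helicon 4 and at 3.10, 3.02 and 4.25 with 10 µM, against 5.71, 4.61 and 4.56 with DMSO. The 3 µM difference from DMSO was −0.62 (limma, adjusted p = 0.0075; 0.0609 without Helicon 4 replicate 2). The 10 µM difference was −0.43 (adjusted p = 0.0431), a call lost in 4 of the 6 fits that left out 1 library each (replicates 1 and 2 of Helicon 4 and of DMSO; adjusted p up to 0.167) and with median centring (−0.38, adjusted p = 0.0703), and neither dose passed against Helicon 4-neg (−0.36, adjusted p = 0.215, and −0.23, adjusted p = 0.379).

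DUSP5, a nuclear phosphatase that also acts on ERK, was at 5.42, 5.16 and 4.93 scaled CPM with 10 µM Helicon 4 at 48 h, against 6.61, 8.24 and 7.41 with Helicon 4-neg and 9.15, 8.12 and 8.98 with DMSO. With 3 µM it was at 5.74, 5.07 and 5.11, against 8.26, 7.11 and 6.02 with Helicon 4-neg. Every Helicon 4 library of those doses was below every library of its comparison groups. The log2 difference from Helicon 4-neg was −0.44 ± 0.104 (SE) at 10 µM (limma, adjusted p = 0.00088) and −0.36 ± 0.104 at 3 µM (adjusted p = 0.00553). The 3 µM call was lost without Helicon 4-neg replicate 1 (−0.26, adjusted p = 0.0509), and the difference was −0.06 (adjusted p = 0.835) without the COL1A2-high libraries, which are 2 of the 3 in each of those groups. At 10 µM and 24 h DUSP5 differed by −0.48 from DMSO (adjusted p = 0.00384), and by the same −0.48 without the COL1A2-high libraries (adjusted p = 0.0984). It differed by −0.25 from Helicon 4-neg, which did not pass. At 1 µM and 48 h it differed by 0.11 (95% interval −0.11 to 0.32), and at 6 h all 9 Helicon 4 libraries lay between 7.76 and 11.6 scaled CPM, against 8.14 to 10.5 with DMSO.

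SPRED2, which binds RAS pathway proteins and blocks RAF activation, fell with Helicon 4 at every dose at 24 and 48 h relative to Helicon 4-neg. At 48 h it was at 19.9, 22.3 and 24.8 scaled CPM with 1 µM Helicon 4, at 18.8, 17.7 and 20.3 with 3 µM and at 21.0, 17.9 and 19.4 with 10 µM. With Helicon 4-neg it was at 27.6, 28.2 and 29.8 (1 µM), 37.9, 39.3 and 30.8 (3 µM) and 39.6, 37.6 and 38.5 (10 µM), and with DMSO at 38.7, 36.5 and 40.1. No Helicon 4 library reached the lowest library of either other treatment. The log2 difference from Helicon 4-neg was −0.35 ± 0.084, −0.89 ± 0.084 and −0.96 ± 0.084 (SE) at 1, 3 and 10 µM (limma, adjusted p = 0.00244, 5.84e-09 and 1.44e-09). None of these 3 calls was lost in any fit that left out 1 library.

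At 24 h SPRED2 was at 31.0, 20.8 and 22.8 scaled CPM with 10 µM Helicon 4, against 33.8, 36.5 and 35.7 with Helicon 4-neg and 34.6, 33.0 and 38.8 with DMSO. Replicate 1 of Helicon 4 stood apart from the other pair, though still below all libraries of both other groups. The log2 difference from Helicon 4-neg was −0.35, −0.42 and −0.51 at 1, 3 and 10 µM (limma, adjusted p = 0.0190, 0.00238 and 0.000341). At 10 µM it was −0.20 (adjusted p = 0.299) without the COL1A2-high libraries, which left Helicon 4 replicate 1 alone in its group. The 1 µM call was lost in 4 of the 6 fits that left out 1 library (Helicon 4 or Helicon 4-neg replicate 1 or 3; adjusted p up to 0.0753). Against DMSO SPRED2 did not pass at 1 µM and 24 h, at means of 29.95 with Helicon 4, 35.48 with DMSO and 38.45 with Helicon 4-neg. It passed there with the set as a covariate (−0.34, limma, adjusted p = 0.0389). At 6 h and 10 µM SPRED2 was at 29.7, 29.2 and 30.1 with Helicon 4, against 34.9, 37.1 and 36.2 with Helicon 4-neg and 36.4, 43.4 and 36.2 with DMSO. The difference from DMSO was −0.37 (limma, adjusted p = 0.00312) and held in every fit without 1 library, whereas that from Helicon 4-neg (−0.27, adjusted p = 0.0357) was lost in all 6 (adjusted p 0.0625 to 0.122). The −0.27 was also lost in 1 fit of all 63 libraries (adjusted p = 0.0748) and in the fit without the COL1A2-high libraries (adjusted p = 0.0554), none of which belongs to these groups.

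SPRED2 was also the 1 member that fell with Helicon 4-neg. At 48 h the 1 µM Helicon 4-neg libraries (27.6, 28.2 and 29.8 scaled CPM) were all below the DMSO libraries (38.7, 36.5 and 40.1), a log2 difference of −0.42 ± 0.084 (SE; limma, adjusted p = 0.00186). All 3 of these Helicon 4-neg libraries were of the CDH1 set and no DMSO library of that time was, and with the set as a covariate the difference was −0.33 (adjusted p = 0.0631). At 3 and 10 µM Helicon 4-neg the difference was −0.10 (95% interval −0.27 to 0.08) and 0.0038 (95% interval −0.17 to 0.18).

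The Sprouty genes, inhibitors of receptor signalling upstream of ERK, were low, and SPRY1 and SPRY2 fell at 10 µM and 48 h. SPRY1 was at 3.09, 2.12 and 2.46 scaled CPM with 10 µM Helicon 4 at 48 h, against 4.41, 3.85 and 3.78 with Helicon 4-neg and 3.55, 3.82 and 4.23 with DMSO. SPRY2 was at 1.57, 1.59 and 1.44 with Helicon 4, against 2.91, 2.71 and 2.4 with Helicon 4-neg and 2.55, 1.86 and 2.01 with DMSO. For both genes every Helicon 4 library was below all libraries of the other groups. The log2 difference from Helicon 4-neg was −0.50 ± 0.128 (SE) for SPRY1 (limma, adjusted p = 0.00204) and −0.53 ± 0.127 for SPRY2 (adjusted p = 0.00106), and neither call was lost when 1 library was left out. Against DMSO SPRY1 fell by 0.46 (adjusted p = 0.0037), and SPRY2 by 0.30 (adjusted p = 0.0429), a call lost in 5 of the 6 fits without 1 library (all but DMSO replicate 2; adjusted p up to 0.196). The SPRY2 difference from DMSO was −0.34 with the set as a covariate (adjusted p = 0.0551) and −0.33 without the COL1A2-high libraries (adjusted p = 0.0632). It was also lost with a pseudocount of 0.1 (adjusted p = 0.051) and with edgeR (adjusted p = 0.0588).

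At 24 h and 3 µM SPRY1 was at 2.67, 2.06 and 2.52 scaled CPM with Helicon 4, against 4.07, 4.2 and 4.19 with Helicon 4-neg and 3.20, 3.00 and 3.34 with DMSO. SPRY2 was at 1.40, 1.01 and 1.75, against 2.26, 2.90 and 2.62 with Helicon 4-neg and 1.94, 2.10 and 2.31 with DMSO. Neither gene's Helicon 4 libraries overlapped the others. Both fell by 0.60 on the log2 scale against Helicon 4-neg (limma, adjusted p = 0.000675 for SPRY1 and 0.00062 for SPRY2), and both calls held in all 6 fits without 1 library. At 10 µM and 24 h the differences were smaller, −0.31 for SPRY1 (adjusted p = 0.0481) and −0.36 for SPRY2 (adjusted p = 0.0208), and each call was lost in 4 of the 6 fits without 1 library (adjusted p up to 0.236 and 0.102). The libraries concerned were Helicon 4 replicates 2 and 3 for SPRY1, Helicon 4 replicates 1 and 3 for SPRY2, and Helicon 4-neg replicates 2 and 3 for both. Without the COL1A2-high libraries the 10 µM differences were −0.14 for SPRY1 (adjusted p = 0.661) and −0.49 for SPRY2 (adjusted p = 0.0978). The SPRY2 difference was −0.30 with the set as a covariate (adjusted p = 0.0661), and the SPRY1 call was lost with a pseudocount of 0.1 (adjusted p = 0.0532) and with edgeR (adjusted p = 0.0563). At 1 µM and 24 h SPRY2 differed from Helicon 4-neg by −0.44 (adjusted p = 0.0147), which was lost without Helicon 4 replicate 3 or Helicon 4-neg replicate 1 (adjusted p up to 0.0639). At 3 µM and 48 h SPRY1 differed by −0.34 (limma, adjusted p = 0.0292), which was lost without Helicon 4 replicate 1 or 2 or Helicon 4-neg replicate 2 (adjusted p up to 0.131), and was −0.37 (adjusted p = 0.221) without the COL1A2-high libraries. At 6 h and 10 µM SPRY1 differed from Helicon 4-neg by −0.43 (limma, adjusted p = 0.0390), a call lost in 5 of 6 such fits (all but Helicon 4 replicate 2; adjusted p up to 0.137). The SPRY1 call was also lost with median centring (adjusted p = 0.0563) and in the fit without the COL1A2-high libraries (−0.43, adjusted p = 0.0528), none of which belongs to these groups. SPRY2 differed by −0.42 (limma, adjusted p = 0.0874), which passed in 1 fit of all 63 libraries (adjusted p = 0.0375) and without Helicon 4 replicate 2 or Helicon 4-neg replicate 1 (adjusted p down to 0.0284). From DMSO it differed by −0.53 (limma, adjusted p = 0.0181), a call lost without Helicon 4 replicate 1 or 3 or DMSO replicate 3 (adjusted p up to 0.108).

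SPRY4 was too low to compare closely. The 1 difference that passed was that at 10 µM and 24 h between Helicon 4 (0.0465, 0.233 and 0.221 scaled CPM, or 1, 4 and 5 reads) and DMSO (0.389, 0.493 and 0.499, or 12, 12 and 13 reads), at −0.33 on the log2 scale (limma, adjusted p = 0.0413). It was lost in 5 of the 6 fits without 1 library (all but Helicon 4 replicate 2; adjusted p up to 0.158) and was −0.19 (adjusted p = 0.233) with the library set as a covariate and −0.52 (adjusted p = 0.0536) without the COL1A2-high libraries. SPRY4 itself differed between the sets, with a median of 0.518 scaled CPM in the CDH1 set, 0.269 in the COL1A2-high set and 0.129 in the remaining libraries. Against Helicon 4-neg SPRY4 passed at no dose or time, with 95% intervals that lay between −0.56 and 0.48 on the log2 scale. It passed at 3 µM and 24 h without Helicon 4 replicate 3 (adjusted p = 0.0324) or with the set as a covariate (adjusted p = 0.0406), and at 10 µM and 48 h without Helicon 4-neg replicate 1 (adjusted p = 0.0375), in opposite directions.

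PHLDA1, an intracellular protein with a pleckstrin homology-like domain that is induced by growth factor signalling, rose with Helicon 4 at every dose at 48 h. At 48 h it was at 3.43, 3.91 and 4.03 scaled CPM with 1 µM Helicon 4, at 5.44, 5.77 and 5.81 with 3 µM and at 4.51, 4.17 and 4.32 with 10 µM. With Helicon 4-neg it was at 1.49, 1.69 and 2.05 (1 µM), 2.35, 2.08 and 1.74 (3 µM) and 1.92, 1.41 and 1.01 (10 µM), and with DMSO at 1.18, 1.33 and 2.22. All 9 Helicon 4 libraries were above all 12 others of that time, and the 3 µM libraries were above those at 10 µM. The log2 difference from Helicon 4-neg was 0.81, 1.13 and 1.14 at 1, 3 and 10 µM, each ± 0.143 (SE; limma, adjusted p = 0.000104, 5.09e-07 and 3.99e-07). No fit without 1 library ended any of these calls.

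At 24 h PHLDA1 was at 3.67, 2.79 and 3.18 scaled CPM with 10 µM Helicon 4, against 1.73, 2.02 and 0.861 with Helicon 4-neg and 1.78, 1.35 and 1.5 with DMSO. The groups did not overlap, and PHLDA1 rose by 0.76 ± 0.182 (SE) on the log2 scale against Helicon 4-neg (limma, adjusted p = 0.0015). At 3 µM it rose by 0.56 (adjusted p = 0.0164), a call lost without Helicon 4 replicate 3 or Helicon 4-neg replicate 1 (adjusted p up to 0.0892). At 1 µM the difference was 0.48 (adjusted p = 0.0563), which did not pass. It passed with the set as a covariate (0.59, adjusted p = 0.0193) and without the COL1A2-high libraries (0.65, adjusted p = 0.0162). It also passed with median centring, with robust empirical Bayes, in 1 fit of all 63 libraries and without Helicon 4 replicate 2 or Helicon 4-neg replicate 3. At 6 h all 21 libraries lay between 1.04 and 2.17 scaled CPM, and no dose passed. Within groups, PHLDA1 was on average 0.13 higher on the log2 scale than its group mean in COL1A2-high libraries, against an SD of 0.17 between libraries of a group. With the set as a covariate the 10 µM difference from Helicon 4-neg was 0.73 at 24 h and 1.08 at 48 h, and without the COL1A2-high libraries it was 1.33 and 1.14.

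Counts of members that passed are given beside the share of all genes that passed, which was large with Helicon 4. At 10 µM against Helicon 4-neg, 3 of the 9 members passed at 6 h, all lower (ETV5, SPRED2 and SPRY1), where 8.42% of all 13057 genes tested passed (2.72% higher and 5.71% lower). At 24 h 7 passed, 2 higher and 5 lower, against 52.7% of 13213 genes (25.1% higher and 27.6% lower), and at 48 h 7 passed, 1 higher and 6 lower, against 53.7% of 13478 genes (26.7% higher and 27% lower). Without the COL1A2-high libraries 1 member passed at 6 h and 2 at 24 h, where 1 library was left in each group and was assumed to vary like those of the other groups. The Helicon 4 and Helicon 4-neg libraries of 3, 8 and 7 members did not overlap at 6, 24 and 48 h. The share of all genes without overlap was not counted, so these counts are not a result about the 9 genes. The median log2 difference of the members was −0.23, −0.31 and −0.50 at those times, where the median of all genes was 0.0011, −0.00073 and 0.011. The members were chosen with earlier results of these data known, so these medians describe the list and are no independent result.

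At 3 µM against Helicon 4-neg, 0, 5 and 5 members passed at 6, 24 and 48 h, against 1.64%, 42.9% and 52.5% of all genes, and at 1 µM 0, 4 and 3 passed, against 0.0613%, 25.5% and 35.9%. Beside these shares of all genes, the counts at 24 and 48 h are not in themselves a result about the 9 genes. At 6 h an unadjusted p under 0.05 was given to 1825 genes at 1 µM and 1851 at 3 µM (limma), and edgeR on the recovered reads called 10 and 201 genes. Against DMSO, which shares its libraries with every comparison of its time, 4, 7 and 7 members passed with 10 µM Helicon 4 (13.7%, 52.7% and 59.8% of all genes), 2, 5 and 6 with 3 µM (9.17%, 45.2% and 59.2%) and 2, 1 and 4 with 1 µM (12.7%, 18.9% and 40.9%). At 1 µM and 48 h the Helicon 4 and DMSO libraries shared no library set.

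**Figure D2:**
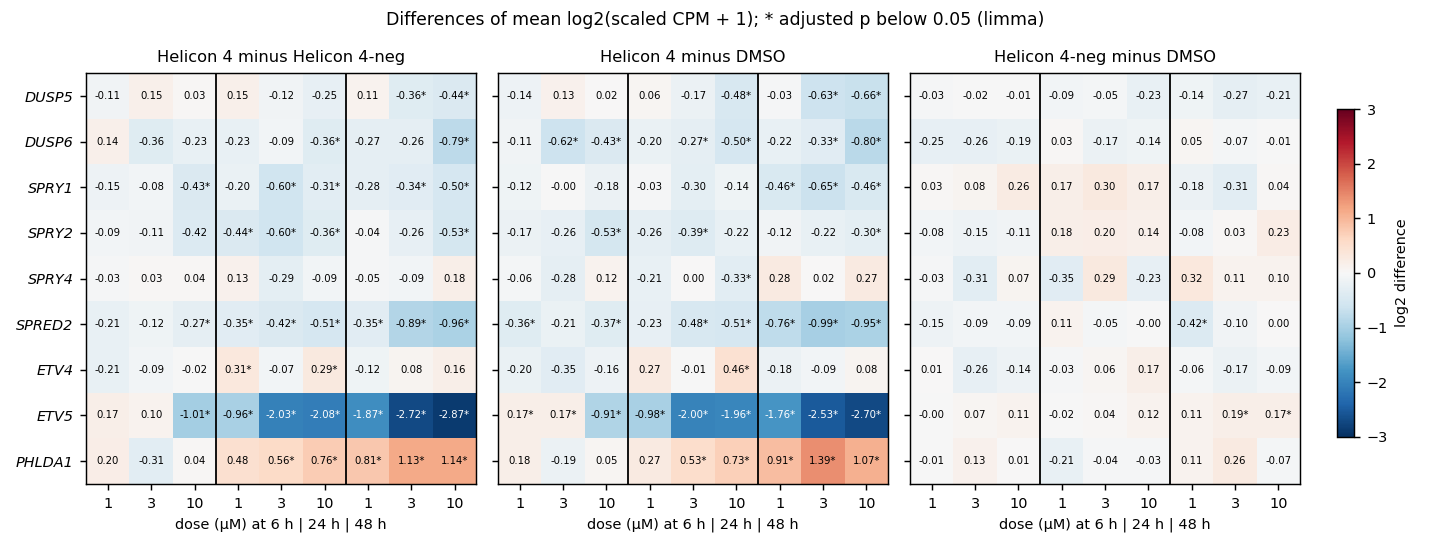
Differences of the 9 genes on the log2(scaled CPM + 1) scale for Helicon 4 against Helicon 4-neg, Helicon 4 against DMSO and Helicon 4-neg against DMSO at each dose and time, with marks where the adjusted p (limma) was below 0.05. ETV5 reaches −2.87 and SPRED2 −0.96 at 10 µM and 48 h against Helicon 4-neg, and PHLDA1 reaches 1.14.

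Few members passed between Helicon 4-neg and DMSO. Set against the shares of all genes that passed, given with them, these counts are not in themselves a result about the members. No member passed against DMSO at 6 h, where 0.0306%, 1.75% and 0.26% of all genes passed at 1, 3 and 10 µM, or at 24 h, where 0%, 2.36% and 11.7% did (limma). At 24 h and 1 µM, where no gene passed in either limma or edgeR, 676 genes had an unadjusted p under 0.05 in limma. At 48 h 1 member passed at each dose, against 24.3%, 28.3% and 19% of all genes: SPRED2 at 1 µM, described above, and ETV5 at 3 and 10 µM. ETV5 was at 135, 139 and 141 scaled CPM with 3 µM Helicon 4-neg and at 137, 137 and 138 with 10 µM, against 121, 121 and 123 with DMSO. The log2 difference was 0.19 ± 0.056 (SE; limma, adjusted p = 0.0178) at 3 µM and 0.17 ± 0.056 (adjusted p = 0.0332) at 10 µM. The call at 10 µM was lost in all 6 fits without 1 library (adjusted p 0.0639 to 0.0997), and that at 3 µM without Helicon 4-neg replicate 3 or DMSO replicate 2 (adjusted p up to 0.07). The 3 µM difference was 0.15 with the set as a covariate (adjusted p = 0.0796), and the 10 µM difference 0.18 without the COL1A2-high libraries (adjusted p = 0.0523).

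In DMSO alone some members shifted with time. ETV5 was 0.24 ± 0.053 (SE) higher on the log2 scale at 24 h than at 6 h (limma, 1 fit of all libraries, adjusted p = 0.000678) and 0.18 ± 0.053 lower at 48 h than at 24 h (adjusted p = 0.00352), a call lost with each library centred on its median (−0.08, adjusted p = 0.206). That centring put the median of all genes at 0.0752 in place of −0.02525. ETV4 was lower at 24 h (2.72, 2.71 and 3.00 scaled CPM) than at 6 h (4.27, 3.40 and 4.56), a difference of −0.41 (adjusted p = 0.0296), and DUSP6 was 0.33 higher at 48 h than at 24 h (adjusted p = 0.0249). Each of these calls of ETV4 and DUSP6 was lost in 4 of the 6 fits without 1 library (adjusted p up to 0.135 and 0.144). The libraries were replicates 1 and 3 of 6 h and 1 and 2 of 24 h for ETV4, and replicates 2 and 3 of both 24 h and 48 h for DUSP6. Without the COL1A2-high libraries the differences were −0.39 for ETV4 (adjusted p = 0.12) and 0.31 for DUSP6 (adjusted p = 0.1). The 2 members of 9 that passed at each step compare with 20.4% and 50.9% of all 13782 genes tested. For that reason each treatment was set against the libraries of its own time.

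Helicon 4 had a called dose slope for 1, 4 and 3 members at 6, 24 and 48 h, against 8.68%, 35.9% and 31.3% of all genes. Over 1 to 10 µM the ETV5 level changed by −1.09, −0.96 and −0.92 on the log2 scale per 10-fold dose of Helicon 4 at 6, 24 and 48 h, and by −1.20, −1.10 and −0.99 relative to the slope of Helicon 4-neg (limma, adjusted p = 2.08e-11, 5.75e-10 and 6.22e-09). At 6 h this slope came from the 10 µM libraries alone, since the 1 and 3 µM libraries were at 126 to 140 scaled CPM, and at 24 h from the step between 1 and 3 µM. DUSP5 had a slope of −0.54 and −0.62 at 24 and 48 h, with −0.52 (adjusted p = 0.068) at 24 h without the COL1A2-high libraries, and of −0.55 at 48 h relative to Helicon 4-neg (adjusted p = 0.0119). The DUSP6 slope was −0.58 at 48 h. At 24 h it was −0.30 (adjusted p = 0.0303), a call lost in 4 of the 9 fits without 1 library (10 µM replicates 1 and 2, 1 µM replicates 2 and 3; adjusted p up to 0.132). It was also lost in 1 fit of all 63 libraries (adjusted p = 0.0623), with the set as a covariate (−0.27, adjusted p = 0.073) and without the COL1A2-high libraries (−0.30, adjusted p = 0.1024). The SPRED2 slope at 24 h was −0.27, a call (adjusted p = 0.0459) lost in 6 of the 9 fits without 1 library (any 1 µM replicate, 3 µM replicate 2, 10 µM replicates 2 and 3; adjusted p up to 0.254). It was −0.20 with the set as a covariate and 0.06 without the COL1A2-high libraries. SPRED2 had no called slope at 48 h (−0.19, adjusted p = 0.101), where it was already low at 1 µM, and its slope relative to Helicon 4-neg (−0.60, adjusted p = 0.000956) stood beside a slope of 0.42 with Helicon 4-neg (adjusted p = 0.0124). Helicon 4-neg had a called slope for 0, 0 and 1 members at 6, 24 and 48 h, against 0.0613%, 19.8% and 2.24% of all genes. That of SPRED2 was lost without Helicon 4-neg 10 µM replicate 1 (adjusted p = 0.0527). Relative to Helicon 4-neg, 1, 1 and 3 members had a called slope at 6, 24 and 48 h, against 2.75%, 33% and 16.6% of all genes.

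**Figure D3:**
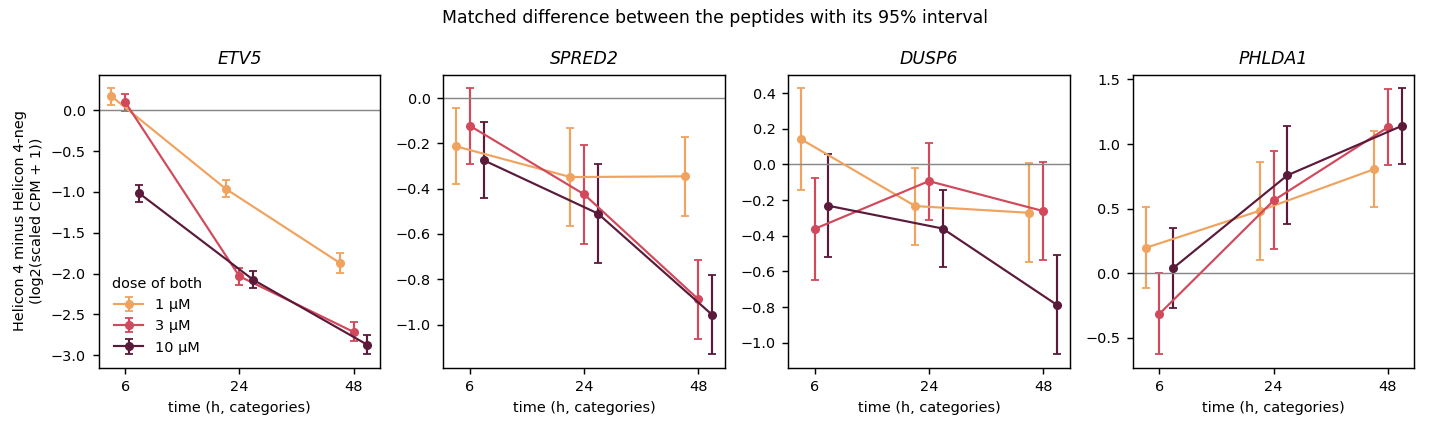
Difference between Helicon 4 and Helicon 4-neg of the same dose (1, 3 or 10 µM) on the log2(scaled CPM + 1) scale at 6, 24 and 48 h for ETV5, SPRED2, DUSP6 and PHLDA1, each panel with its own y axis; bars are 95% intervals and times are drawn as evenly spaced categories. ETV5 at 10 µM is at −1.01, −2.08 and −2.87 at the 3 times, while PHLDA1 is at 0.04, 0.76 and 1.14.

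The difference between Helicon 4 and Helicon 4-neg at 10 µM itself changed with time for 3 members. For ETV5 it was lower by 1.06 ± 0.075 (SE) on the log2 scale at 24 h than at 6 h (limma, 1 fit of all libraries, adjusted p = 6.98e-17) and lower by a further 0.80 ± 0.075 at 48 h than at 24 h (adjusted p = 1.06e-11). For PHLDA1 it was 0.72 ± 0.229 higher at 24 h than at 6 h (adjusted p = 0.0105), and 0.51 (adjusted p = 0.0780) without Helicon 4-neg 10 µM 24 h replicate 3. For SPRED2 it was lower by 0.45 ± 0.136 at 48 h than at 24 h (adjusted p = 0.0204). That call was lost without Helicon 4 10 µM 24 h replicate 1 (−0.28, adjusted p = 0.158), Helicon 4-neg 10 µM 24 h replicate 1 (−0.42, adjusted p = 0.0535) or Helicon 4 10 µM 48 h replicate 2 (−0.39, adjusted p = 0.0736). Of all 13782 genes, 37.6% passed for the step from 6 to 24 h and 12.8% for that from 24 to 48 h, against 2 of 9 members at each.

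Ordered by group mean, ETV5 had its 7 lowest groups all among the 9 Helicon 4 groups. The order over the 21 groups ran up from 17.9 scaled CPM (10 µM Helicon 4, 48 h) to 149 (10 µM Helicon 4-neg, 24 h). Of 20 neighbouring pairs in that order 14 overlapped in their libraries and 6 did not, among these the pair between 69.2 (1 µM Helicon 4, 24 h) and 117 (1 µM Helicon 4-neg, 6 h). PHLDA1 had the 6 Helicon 4 groups of 24 and 48 h at the top, with 18 of 20 neighbouring pairs overlapping. For DUSP6, SPRY1, SPRY2, SPRED2 and ETV4 all 20 neighbouring pairs overlapped, and for DUSP5 and SPRY4 19 did.

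Over the 21 group means of log2(scaled CPM + 1), which share depth, time and treatment, ETV5 ran with SPRED2 (Pearson r 0.925) and against PHLDA1 (r −0.913), and SPRED2 ran against PHLDA1 (r −0.92). Among 3640 genes with enough level and spread, those nearest to ETV5 were ELOVL7, a fatty acid elongase (r 0.984), TNFRSF19, a TNF receptor family member (r 0.983), and PHLDB2 (r 0.98). PTPN18, a tyrosine phosphatase (r 0.964), was nearest to SPRED2 and TMSB4X, a thymosin that binds actin (r 0.971), to PHLDA1. For the other members the nearest were PTP4A1 (DUSP5, r 0.912), NKD1, an inhibitor of Wnt signalling (SPRY2, r 0.885), FASN (SPRY1, r 0.88), IMP3 (DUSP6, r 0.842), ZYX (ETV4, r 0.719) and DNMT3B (SPRY4, r 0.657). These correlations are descriptions over group means that share conditions, and carry no p.

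The rest of the pathway was followed through 8 lists with 99 genes, 87 of them in the table. With 10 µM Helicon 4 at 48 h, 26.7% of all genes rose and 27% fell relative to Helicon 4-neg. The counts of each list stand beside these shares and, on lists this short, are not in themselves a result about a list. Of 12 receptor tyrosine kinases tested at 48 h with 10 µM, 2 rose and 5 fell relative to Helicon 4-neg (median difference −0.05, all genes 0.01), and of 7 ligands 1 rose and 2 fell (median −0.21). KIT, the receptor for stem cell factor, was at 2.90, 4.85 and 3.81 scaled CPM with 10 µM Helicon 4 at 48 h, against 17.7, 16.5 and 18.1 with Helicon 4-neg, with no overlap and a log2 difference of −1.94 ± 0.13 (SE; limma, adjusted p = 1.18e-11). At 6 h KIT was already at 13.1, 12.4 and 12.8, against 23.7, 22.7 and 25.1 (−0.85, adjusted p = 1.31e-08). FGFR1, a receptor for fibroblast growth factors, was at 25.6, 24.2 and 21.0 at 48 h, against 60.9, 52.9 and 54.2 (−1.21, adjusted p = 1.41e-11). MET, the receptor for hepatocyte growth factor, fell by 0.62 at 24 h (limma, adjusted p = 2.08e-09) and by 0.70 at 48 h (adjusted p = 4.02e-07). FGFR4 fell by 0.76 (adjusted p = 1.06e-07) and KITLG, the ligand of KIT, by 0.47 (adjusted p = 0.00169), both at 48 h. Against DMSO at 48 h the difference was −2.11 for KIT, −0.975 for FGFR1, −0.56 for FGFR4 and −0.51 for KITLG. For MET it was −0.77 at 24 h.

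Of 9 adaptors and RAS activators 5 rose and 1 fell at 48 h (median 0.20), where 26.7% of all genes rose and 27% fell. SOS2, a RAS exchange factor, was at 38.7, 37.3 and 37.1 scaled CPM with 10 µM Helicon 4, against 19.5, 21.4 and 22.7 with Helicon 4-neg (0.80, limma, adjusted p = 2.7e-09). Of 11 genes of the RAS, RAF, MEK and ERK core 4 rose and 1 fell (median 0.07), and among those that rose were RRAS, a RAS relative, by 1.18 (adjusted p = 1.59e-12) and BRAF, a RAF kinase, by 0.59 (adjusted p = 3.54e-05). Of 19 other negative regulators 6 rose and 4 fell (median 0.05). Within that list DUSP7 fell by 0.52 at 48 h (limma, adjusted p = 0.000493). DUSP2 fell by 0.69 (adjusted p = 2.63e-09) and DUSP9 by 0.47 (adjusted p = 5.53e-07) at 24 h, and by 0.24 and 0.38 at 48 h. DUSP1 rose by 0.41 (adjusted p = 0.00216) and IL17RD, an inhibitor of FGF signalling, by 0.40 (adjusted p = 0.00183), both at 48 h. Against DMSO at 48 h the difference was 0.89 for SOS2, 0.80 for RRAS, 0.76 for BRAF, −0.64 for DUSP7, 0.56 for DUSP1 and 0.44 for IL17RD. At 24 h it was −0.57 for DUSP2 and −0.43 for DUSP9.

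Of 18 immediate-early and ERK-induced genes 7 rose and 2 fell at 48 h (median 0.21). JUNB, an AP-1 subunit, was at 34.2, 33.6 and 32.2 scaled CPM with 10 µM Helicon 4, against 17.1, 16.1 and 17.4 with Helicon 4-neg (0.94, limma, adjusted p = 1.54e-11), and EPHA4, an ephrin receptor, rose by 1.05 (adjusted p = 1.75e-09). CCND1, cyclin D1, was at 16.3, 16.2 and 14.3, against 29, 25.5 and 28.7, and fell by 0.79 (adjusted p = 7.09e-07). ETV1, the other PEA3-type factor, rose by 0.88 at 24 h (41.0, 41.1 and 40.8, against 20.8, 24.1 and 20.7, limma, adjusted p = 1.4e-09), at a time when ETV5 fell by 2.08. At 48 h ETV1 was higher by 0.71. Of 6 other ETS factors 0 rose and 3 fell at 48 h (median −0.20), with ELK3 lower by 0.46 (limma, adjusted p = 1.84e-07). ETS2 was lower by 0.68 at 6 h (adjusted p = 1.05e-09) and by 0.11 at 48 h, which did not pass. Of 4 kinases downstream of ERK 3 rose and 1 fell at 48 h (median 0.18). Against DMSO at 48 h the difference was 0.72 for JUNB, 1.01 for EPHA4, −0.79 for CCND1 and −0.51 for ELK3. For ETV1 it was 0.80 at 24 h. Over the 8 lists, 28 of 86 genes tested rose and 19 fell at 48 h, so 47 passed, where 53.7% of all genes did (26.7% higher and 27% lower). No alternative setting and no library left out moved that count by more than 1.5 times. Between 10 µM Helicon 4-neg and DMSO at 48 h 11 of the 86 genes rose and 7 fell, where 19% of all genes passed.

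**Figure D4:**
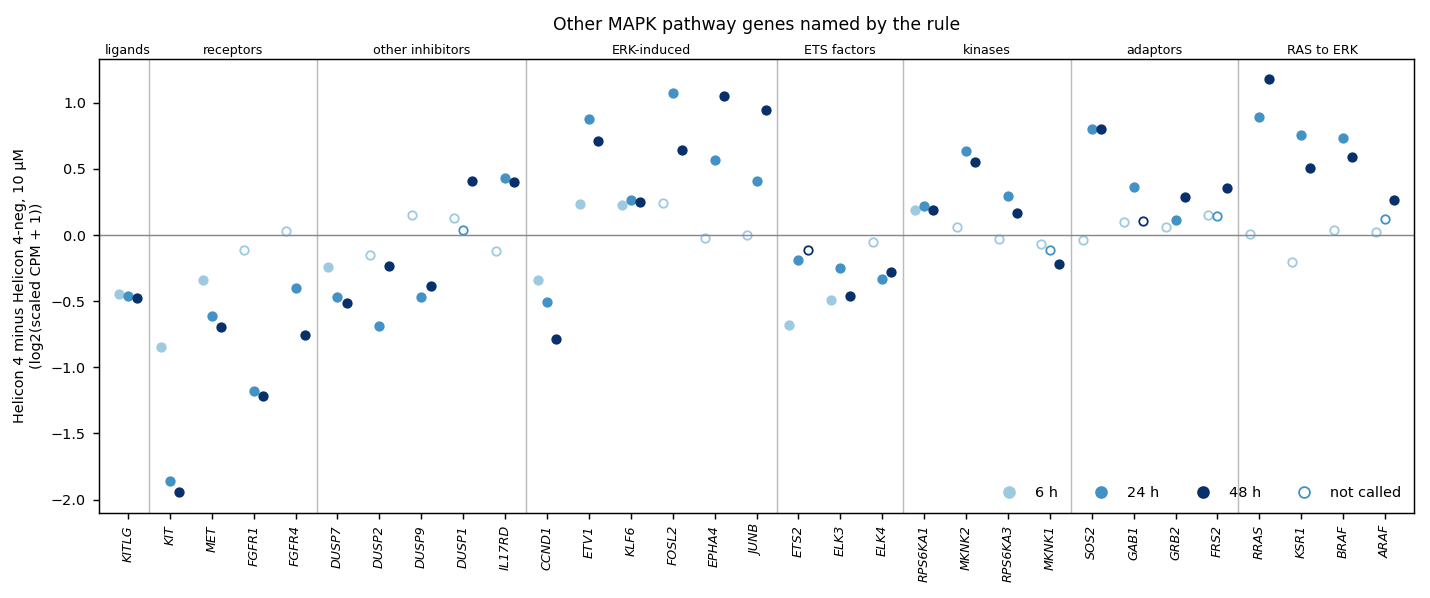
Differences between Helicon 4 and Helicon 4-neg at 10 µM on the log2(scaled CPM + 1) scale for the pathway genes named by rule, by list, at 6, 24 and 48 h. KIT, FGFR1 and CCND1 lie below 0 and RRAS, EPHA4 and JUNB above it at 48 h.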

How the data were processed

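RNA of 63 COLO320DM libraries (21 groups of 3) was measured by stranded TruSeq poly(A) sequencing, per the labels' protocols. Per the submitters' processing notes the build was GRCh38, and the tools included edgeR 4.0.2, featureCounts of Subread 2.4.2, the aligner STAR 2.7.7a and the trimmer Trimmomatic 0.39, with no settings given. The deposited unit is a normalized signal, CPM divided by a factor of each library: the authors' columns sum to between 0.9298 and 1.06 times the total that plain CPM has. Whole reads were recovered from the steps of these values (100% whole within 0.01 read) and gave the depths. On them edgeR called 1085, 6890 and 7210 genes between Helicon 4 and Helicon 4-neg at 10 µM and 6, 24 and 48 h, against 1100, 6958 and 7243 in limma. No 2 replicates held identical values, and the counts of each of the 63 replicate pairs differed by more than sampling noise (chi-square per gene 1.943 to 29.55).

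Differences were fitted with limma 3.58.1 (trend, R 4.3.3) on log2(value + 1) over the 21 libraries of a time, with 95% intervals, for genes at 0.5 or more in at least 3 libraries. A pseudocount of 1 understates the fold change of low genes. P-values are two-sided and adjusted by Benjamini-Hochberg over all genes tested, with calls below 0.05. Time differences and the DMSO time course came from 1 fit of all 63 libraries. The scripts were tested on simulated data. Pathway genes were named if called between Helicon 4 and Helicon 4-neg at 10 µM, among the 3 largest differences of their list and at a mean log2 value of at least 3. For likeness, the nearest genes by Pearson r were taken among those with that level and an SD of group means of at least 0.2. One further gene of the pathway lists is not reported here and enters no count. The members, gene lists and marker lists were chosen with earlier results of these data known. Alternatives were another pseudocount (0.1), no filter, median centring, robust empirical Bayes, 1 fit of 63 libraries, a replicate block, edgeR 4.0.16 with TMM on the recovered reads, and each library left out. The library set covariate, the fits without COL1A2-high libraries and the left-out libraries for slopes and times were chosen after seeing the data. Further marker lists summed to 19.3 to 41.4 scaled CPM with Helicon 4, 20.7 to 28.0 with Helicon 4-neg and 19.9 to 27.1 with DMSO (neuroendocrine, 5 of 7 genes). The leukocyte list (2 of 5 genes) gave 10.7 to 15.9, 9.66 to 14.9 and 9.76 to 15.6 in that order of treatments, and the endothelial list (1 of 4) 0 to 1.57, 0 to 1.41 and 0 to 0.964. Gene positions are from GENCODE 29, in which 13952 gene IDs were found.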

Additional observations from a re-analysis of the deposited data

Results flagged for a closer look

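For 3 members the difference between Helicon 4 and Helicon 4-neg at 10 µM itself differed between times, tested as an interaction in limma over all libraries. For ETV5 it was −1.06 on the log2 scale between 24 and 6 h (adjusted p = 6.98e-17) and −0.80 between 48 and 24 h (adjusted p = 1.06e-11). For PHLDA1 it was 0.72 between 24 and 6 h (adjusted p = 0.0105), and 0.51 (adjusted p = 0.078) without Helicon 4-neg 10 µM 24 h replicate 3. For SPRED2 it was −0.45 between 48 and 24 h (adjusted p = 0.0204). The SPRED2 call was lost without 1 of 3 libraries: Helicon 4 10 µM 24 h replicate 1 (−0.28, adjusted p = 0.158), Helicon 4-neg 10 µM 24 h replicate 1 (−0.42, adjusted p = 0.0535) or Helicon 4 10 µM 48 h replicate 2 (−0.39, adjusted p = 0.0736). Beyond the replicate pairs and the fits without 1 library, groups of 3 libraries were not searched for a single library far from the others. Among the pairs, Helicon 4-neg 1 µM 48 h replicate 1 differed most from replicates 2 and 3 (chi-square per gene 25.04 and 29.55, against 2.212 between those). Replicate 3 of Helicon 4-neg 3 µM 48 h also stood apart from replicates 1 and 2 (23.45 and 29.11, against 5.619).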

How the results depend on the processing

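Counts of the 9 members called kept within 1.5 times of their value in all 40 comparisons with a pseudocount of 0.1, and in all 36 run with no filter, with robust empirical Bayes or with 1 fit of 63 libraries. Between Helicon 4 and DMSO the count at 6 h moved to 1 with the library set as a covariate and 0 without the COL1A2-high libraries at 1 µM (reported as 2), and to 1 with the set at 3 µM (reported as 2). At 24 h it moved to 2 with median centring or the set at 1 µM (reported as 1), and to 4 without the COL1A2-high libraries at 10 µM (reported as 7). Between Helicon 4 and Helicon 4-neg it moved without the COL1A2-high libraries to 1 at 10 µM and 6 h (reported as 3), 2 at 10 µM and 24 h (reported as 7) and 3 at 3 µM and 48 h (reported as 5). Between Helicon 4-neg and DMSO at 48 h it moved to 0 with the set at 1 µM, to 3 with median centring, 2 with edgeR and 2 without the COL1A2-high libraries at 3 µM, and to 0 without those libraries at 10 µM (each reported as 1). Called slopes moved to 2 with the set and 2 without the COL1A2-high libraries for Helicon 4 at 24 h (reported as 4), to 1 with median centring and 1 with edgeR for Helicon 4-neg at 24 h (reported as 0), and to 5 with median centring for the slope difference at 48 h (reported as 3). Between DMSO at 48 and 24 h it moved to 1 without the COL1A2-high libraries (reported as 2). The cause was not tested, beyond the fewer libraries in the fits that leave some out.

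Leaving out 1 library at a time gave counts of 0 to 2 (1 and 3 µM) and 2 to 3 (10 µM) for Helicon 4 against DMSO at 6 h, and 3 to 4 at 3 µM and 24 h. Against Helicon 4-neg the counts were 1 to 3 at 10 µM and 6 h, 1 to 4 at 1 µM and 24 h and 4 to 7 at 10 µM and 24 h. For Helicon 4-neg against DMSO at 48 h they were 0 to 2 at 3 µM and 0 in every such fit at 10 µM. Called slopes were 1 to 2 (6 h) and 2 to 5 (24 h) for Helicon 4, 0 to 1 for Helicon 4-neg at 48 h and 1 to 2 for the slope difference at 24 h. Time differences ran over 1 to 3 (24 and 6 h) and 1 to 2 (48 and 24 h), and the DMSO steps over 1 to 2 each.

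The direction of 1 called value turned: the SPRED2 slope of Helicon 4 at 24 h was 0.06 without the COL1A2-high libraries, against −0.27 with all. Single members lost a call in 23 and gained one in 5 of 360 values without those libraries, and lost 11 and gained 6 with the set as a covariate. The 53 named pathway values kept their direction in every alternative fit.

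Replicate numbers did not pair the libraries: the mean correlation of same-numbered libraries was −0.0478, 0.00858 and −0.0536 at 6, 24 and 48 h, and 3, 5 and 5 of 21 libraries ran best with their own number. With a replicate block DUSP6 lost its call at 10 µM and 6 h against DMSO (−0.43, adjusted p = 0.0589), ETV5 gained one for the Helicon 4-neg slope at 24 h (0.14, adjusted p = 0.0342), which moved that count to 1, and the block changed no other call. Depth limits SPRY4 most, at no more than 35 reads a library.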
